A study of Mus musculus with 6 samples.

Results

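The genes described here encode antibody chains. They were selected on their summed counts: all genes annotated as immunoglobulin constant or variable (V) genes in GENCODE M21 with at least 10 counts summed over the 6 libraries, together with Jchain and Mzb1. This gave 164 members among the 46603 identifiers of the count tables: 7 heavy chain constant genes, the kappa constant gene Igkc, 3 lambda constant genes, 73 heavy V genes, 75 kappa V genes, 3 lambda V genes, Jchain and Mzb1. Of the 231 annotated constant and V genes, 69 fell below the threshold, and 24 of those had 0 counts. The member with the fewest counts was Igkv4-58 with 10, and Ighv1-49, Ighv1-62-2 and Igkv5-45 lay just outside with 9 each.

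RNA was sequenced from visceral adipose tissue, taken at the tip of the abdominal fat of untreated C57/Bl6 mice aged 18 months. There were 3 libraries from NM1 KO mice, which lack nuclear myosin 1, an isoform of the motor protein encoded by Myo1c that acts in the nucleus, and 3 from wild-type (WT) mice. Nothing in the labels ties each replicate to a mouse of its own, so the spread behind the p-values is that between samples and may be technical. Total gene counts were 27525446 to 33537818 in NM1 KO and 24677758 to 31228723 in WT. Myo1c, counted over all of its isoforms, had 452, 697 and 551 CPM (counts per 1000000 counts, scaled by the size factors of the edgeR package) in NM1 KO replicates 1 to 3, against 801, 759 and 801 CPM in WT replicates 1 to 3, and was not called (log2 -0.47 ± 0.17 SE, edgeR adjusted p = 0.151). These values do not check the knockout, because the sources used here do not say which part of the locus was altered. The fat hormone gene Adipoq lay at 1818 to 2360 CPM in NM1 KO and 2397 to 2549 CPM in WT, so a defining transcript of fat cells was abundant throughout.

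An antibody pairs heavy chains with kappa or lambda light chains. Each chain joins a V segment, which contacts the antigen, to a constant region, and the heavy chain constant gene sets the class: Ighm for IgM, Ighd for IgD, the Ighg genes for IgG and Igha for IgA. A developing B cell recombines its DNA so that it uses a single heavy V gene and a single light V gene, and its progeny inherit that choice, while class switching later moves the same V segment to another constant gene. Visceral fat harbours B cells, among them innate-like B-1 cells, and antibody-secreting plasma cells, partly in small lymphoid clusters.

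A few V genes took most of the V counts in some libraries, so the last 240 bases of their V exons are shown here as the germline reference has them. They come from the GENCODE M21 transcripts on build GRCm38, written 5′ to 3′ along the gene, with capitals from the codon of the conserved cysteine, which closes the framework before the antigen-contacting loop, to the end of the exon. Igkv3-2 (chr6:70698828-70699067, plus strand) was the leading kappa V gene of NM1 KO replicates 1 and 3. Ighv11-2 (chr12:114048241-114048480, minus strand) and Igkv14-126 (chr6:67896403-67896642, plus strand) led NM1 KO replicate 2 and WT replicates 2 and 3. Among heavy V genes, Ighv11-2 also led NM1 KO replicate 1. Ighv1-55 (chr12:115208095-115208334, minus strand) and Igkv12-89 (chr6:68834846-68835085, minus strand) led WT replicate 1.
Igkv3-2: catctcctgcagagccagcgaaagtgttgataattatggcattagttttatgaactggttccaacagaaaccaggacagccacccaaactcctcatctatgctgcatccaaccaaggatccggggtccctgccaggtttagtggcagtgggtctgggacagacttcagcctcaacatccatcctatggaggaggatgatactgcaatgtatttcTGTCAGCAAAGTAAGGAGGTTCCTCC
Ighv11-2: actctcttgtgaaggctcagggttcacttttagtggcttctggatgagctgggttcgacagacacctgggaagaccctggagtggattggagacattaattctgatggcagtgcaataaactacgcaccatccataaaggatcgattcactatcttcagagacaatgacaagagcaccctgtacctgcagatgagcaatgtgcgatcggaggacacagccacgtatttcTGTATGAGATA
Igkv14-126: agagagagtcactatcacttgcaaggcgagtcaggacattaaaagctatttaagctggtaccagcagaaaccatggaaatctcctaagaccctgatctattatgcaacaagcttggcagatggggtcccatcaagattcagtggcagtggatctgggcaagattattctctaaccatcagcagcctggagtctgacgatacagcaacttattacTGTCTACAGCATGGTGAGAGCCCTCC
Ighv1-55: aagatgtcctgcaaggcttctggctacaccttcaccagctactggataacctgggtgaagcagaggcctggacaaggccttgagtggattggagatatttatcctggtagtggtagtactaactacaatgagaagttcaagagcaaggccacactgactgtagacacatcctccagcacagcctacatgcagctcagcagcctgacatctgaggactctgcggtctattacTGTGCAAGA
Igkv12-89: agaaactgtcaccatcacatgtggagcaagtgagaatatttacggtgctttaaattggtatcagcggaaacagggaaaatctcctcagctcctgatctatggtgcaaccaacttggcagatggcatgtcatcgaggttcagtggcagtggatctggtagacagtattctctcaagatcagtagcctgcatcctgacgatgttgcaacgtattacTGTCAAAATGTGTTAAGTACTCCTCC
How far counts of such segments can be told apart depends on their nearest relative. The V exon closest to Ighv11-2 was that of Ighv11-1, with 98.7% identity and 12 counts in all. Ighv1-55 was 95.4% identical to Ighv1-64, which held 539 counts. For Igkv14-126, Igkv12-89 and Igkv3-2 the closest V exon shared 90.9%, 85.6% and 92.9% of bases.

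NM1 KO was compared with WT to see which antibody classes, light chains and V genes of old visceral fat differ without nuclear myosin 1. The total antibody signal overlapped between the groups, while the share of V counts held by the leading V gene did not. The members summed to 6226, 932 and 2346 CPM in NM1 KO replicates 1 to 3, against 1718, 4133 and 1861 CPM in WT replicates 1 to 3. NM1 KO held both the highest and the lowest library, so the groups overlapped. The mean was 3168 ± 2741 CPM in NM1 KO and 2570 ± 1355 CPM in WT (SD, n = 3 each). For constant and V genes alone the log2 ratio of the group means was 0.33, and it was -0.62 without NM1 KO replicate 1. In bulk tissue, fewer antibody-producing cells and less antibody RNA per cell cannot be told apart.

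Ighg2c, the constant gene of IgG2c, was the only member called, that is, with a Benjamini-Hochberg adjusted p under 0.05 in edgeR's quasi-likelihood test. Among all 15828 tested genes the share called was 4.25%, with 2.79% higher and 1.47% lower in NM1 KO. Of the members, 68 had enough counts to be tested and 96 did not. Of the 68 tested, 1 was called and 8 had a p under 0.05 before adjustment, 7 higher and 1 lower in NM1 KO, where 23.7% of all genes reached that level. In this fit 1.47% of the tested members were called, beside the 4.25% of all genes. Leaving out NM1 KO replicate 2 gave 23 called members of 110 tested, or 20.9%, beside 10.2% of all genes in that fit. Leaving out NM1 KO replicate 3 or any of the WT replicates gave 0 called members, in fits that called at most 0.225% of all genes. DESeq2 called 6 members, against 14.1% of all genes, and limma-voom 3, against 10.1%. The median log2 fold change of the tested members was 1.28, with 54 above 0 and 14 below, beside a median of -0.0021 over all genes. Their median SE was 1.36, beside 0.20 over all genes. A gene high in a few NM1 KO libraries passes the filter on low counts through those libraries, so these medians describe only the members that passed.

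IgM dominated the heavy chain classes in every library. Ighm had 2925, 747 and 1202 CPM in NM1 KO replicates 1 to 3, against 1138, 2064 and 921 CPM in WT replicates 1 to 3. These ranges overlapped (log2 0.24 ± 0.52, edgeR adjusted p = 0.816), and the fold change was -0.48 without NM1 KO replicate 1. As a share of the counts of all heavy chain constant genes, Ighm made up 89.9%, 96.9% and 95.5% in NM1 KO replicates 1 to 3, and 99.6%, 97.6% and 97.3% in WT replicates 1 to 3. The bounds of the 95% exact Clopper-Pearson intervals lay at most 0.224 points from these shares, which covers counting error only. The share was lower in all 3 NM1 KO libraries than in any WT library, by 4.11 points in the means (94.1% ± 3.68 against 98.2% ± 1.25, SD, n = 3 each). The exact two-sided permutation p was 0.1, which is the smallest that 3 against 3 can give, and 0.2 after adjustment over the 4 shares tested. Ighd, the IgD constant gene that naive B cells express beside Ighm, had 44.0, 13.2 and 5.28 CPM in NM1 KO, against 2.85, 6.52 and 8.86 CPM in WT. Its ranges overlapped as well (log2 1.78 ± 0.77, edgeR adjusted p = 0.217).

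Ighg2c was nearly absent from WT and present in every NM1 KO library. C57BL/6 mice carry Ighg2c in place of the Ighg2a of other strains, and IgG2c is the class that interferon gamma promotes in mice. Ighg2c (ENSMUSG00000076612, chromosome 12, 113285325 to 113288932, minus strand, GRCm38) had 1767, 174 and 509 counts in NM1 KO replicates 1 to 3, against 3, 2 and 6 counts in WT replicates 1 to 3. In CPM these were 56.9, 5.31 and 18.5 in NM1 KO, against 0.111, 0.0639 and 0.240 in WT. The lowest NM1 KO library thus lay above the highest WT library, and NM1 KO libraries differed among themselves by about as much as their mean (26.9 ± 26.8 CPM, SD, n = 3). The log2 fold change was 7.61 ± 1.12 (edgeR adjusted p = 0.0240). The summed counts were 2450 in NM1 KO and 11 in WT, a ratio of 203 after scaling, with a 95% interval for counting error of 113 to 408. Ighg2c was a reason for choosing this set of genes, so its difference is described here and is not independent evidence.

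The call of Ighg2c did not hold in every fit. Its adjusted p was 0.0836 without a filter on low counts and 0.0623 with limma-voom, and it lay between 0.0644 and 0.0992 when NM1 KO replicate 3 or any WT replicate was left out. Its fold change remained between 6.45 and 8.22 in the fits that left out a library. Within the locus, Ighg2c made up 1.75%, 0.689% and 1.47% of heavy chain constant counts in NM1 KO replicates 1 to 3, against 0.00972%, 0.00302% and 0.0254% in WT. The exact permutation p of this share was 0.1, and 0.2 after adjustment over the 4 shares.

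The other IgG genes did not show one pattern. Ighg2b, whose constant exons are the closest to those of Ighg2c (89.8% identity over the leading 3 exons), had 914, 30 and 535 counts in NM1 KO replicates 1 to 3, against 0, 939 and 310 counts in WT replicates 1 to 3. The groups overlapped for Ighg2b (log2 0.23 ± 1.49, edgeR adjusted p = 0.944), and its fold change was below 0 without NM1 KO replicate 1 or without WT replicate 1. The 0 of 30876 heavy chain counts in WT replicate 1 allows a share of up to 0.00972%. Ighg1, the class linked to interleukin-4 in mice, had 4986, 0 and 8 counts in NM1 KO, against 0, 0 and 3 counts in WT. It was therefore a feature of NM1 KO replicate 1, where it made up 4.93% of heavy chain constant counts, and it was not tested. Ighg3, a class of T cell-independent responses, had 318, 18 and 69 counts in NM1 KO, against 1, 42 and 5 counts in WT (log2 3.02 ± 1.29, edgeR adjusted p = 0.213).

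The makeup of IgG thus differed from library to library. In NM1 KO, Ighg2c made up 22.1% of IgG constant counts in replicate 1, 78.4% in replicate 2 and 45.4% in replicate 3. In WT, Ighg2b made up 95.5% of IgG counts in replicate 2 and 95.7% in replicate 3, with Ighg2c at 0.203% and 1.85%, while WT replicate 1 had 4 IgG counts in all. IgG together made up 7.90%, 0.879% and 3.25% of heavy chain constant counts in NM1 KO replicates 1 to 3, against 0.0130%, 1.49% and 1.37% in WT. NM1 KO replicate 2 lay below 2 of the WT libraries in that share. Igha, the constant gene of the mucosal class IgA, had 26.9, 4.12 and 10.7 CPM in NM1 KO, against 1.18, 12.1 and 3.25 CPM in WT (log2 1.33 ± 0.91, edgeR adjusted p = 0.419). Its share of heavy chain constant counts was 0.738% ± 0.177 in NM1 KO and 0.339% ± 0.234 in WT (SD, n = 3 each, exact permutation p = 0.2, adjusted 0.267). Ighe, of IgE, was not a member, with too few counts.

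**Figure D1:**
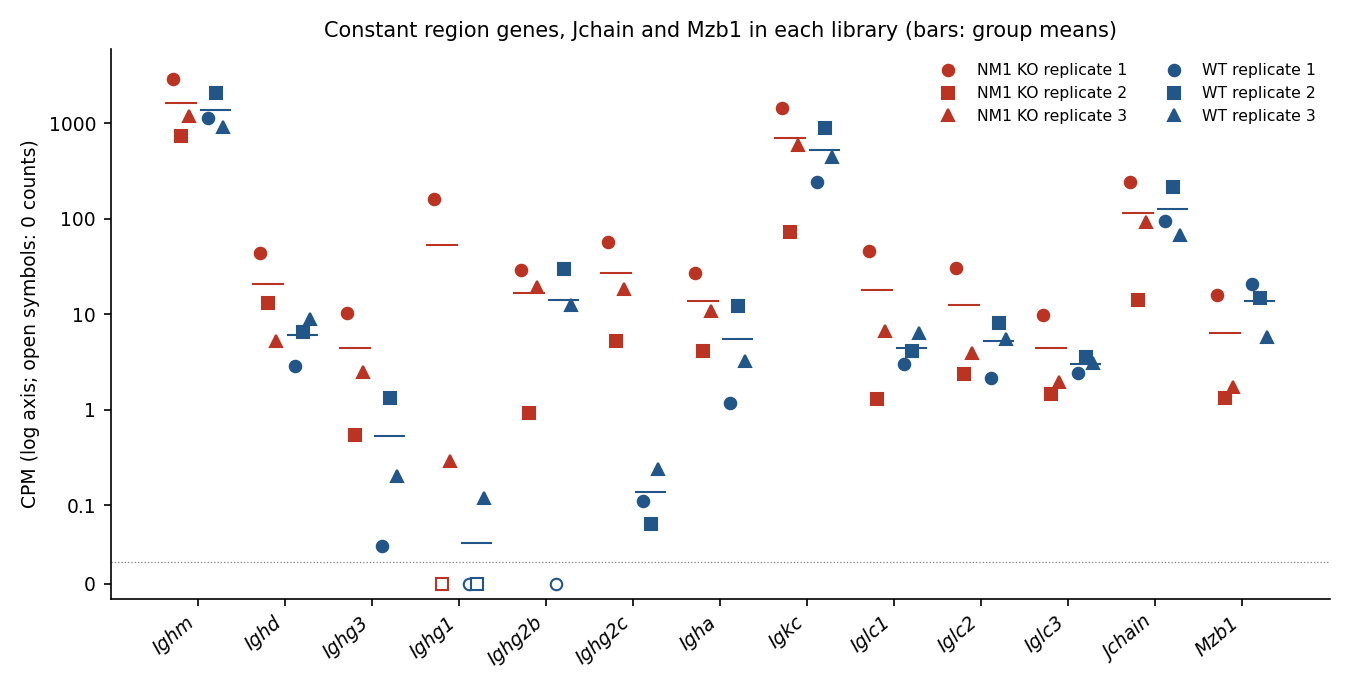
CPM of each constant region gene, Jchain and Mzb1 in each library on a log axis, NM1 KO in red and WT in blue, with symbols for the replicate, bars for group means and open symbols for 0 counts. Ighg2c is the gene whose 3 NM1 KO libraries (5.31 to 56.9 CPM) all lie far above the 3 WT libraries (0.0639 to 0.240 CPM), while Ighm, Igkc and Jchain overlap.

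Kappa chains outweighed lambda chains everywhere, as is usual in mice. Igkc had 1460.0, 72.1 and 591 CPM in NM1 KO replicates 1 to 3, against 244, 895 and 445 CPM in WT replicates 1 to 3. NM1 KO again held the highest and the lowest library (log2 0.42 ± 0.92, edgeR adjusted p = 0.817, and -0.66 without NM1 KO replicate 1). Lambda constant genes made up 5.64%, 6.64% and 2.08% of light chain constant counts in NM1 KO, against 2.99%, 1.73% and 3.26% in WT. The mean share was 4.78% ± 2.40 in NM1 KO and 2.66% ± 0.813 in WT (SD, n = 3 each), and the groups overlapped (exact permutation p = 0.3, adjusted 0.3). Interval bounds lay at most 1.04 points from a share, the widest in NM1 KO replicate 2 with 2531 light chain counts.

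The 3 lambda constant genes rested on the same library. Iglc1, which is used with the V gene Iglv1, had 46.4, 1.28 and 6.70 CPM in NM1 KO, against 3.00, 4.12 and 6.33 CPM in WT (log2 2.02 ± 1.10, edgeR adjusted p = 0.311). Iglc2 had 30.9, 2.38 and 3.90 CPM in NM1 KO, against 2.14, 8.06 and 5.57 CPM in WT. Iglc3 had 9.94, 1.47 and 1.93 CPM in NM1 KO, against 2.40, 3.61 and 3.09 CPM in WT. All 3 were highest in NM1 KO replicate 1 and lowest or near lowest in NM1 KO replicate 2, and their fold changes with NM1 KO replicate 1 left out were -0.16, -0.73 and -0.82. Among lambda V genes, Iglv1 led every library with 62.0% to 86.5% of lambda V counts.

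V genes were used more evenly in NM1 KO libraries than in WT libraries. In no NM1 KO library did a single heavy V gene hold most of the heavy V counts, and in each WT library one did. The leading heavy V gene held 19.6%, 28.6% and 19.4% of heavy V counts in NM1 KO replicates 1 to 3, against 79.8%, 73.0% and 80.0% in WT replicates 1 to 3. The leading kappa V gene held 34.3%, 31.8% and 33.2% of kappa V counts in NM1 KO, against 74.5%, 68.7% and 78.8% in WT. The groups did not overlap for either chain, and interval bounds lay at most 3.48 points from a heavy and 2.47 points from a kappa share. The means were 22.6% ± 5.26 in NM1 KO and 77.6% ± 4.03 in WT for heavy chains, and 33.1% ± 1.26 in NM1 KO and 74.0% ± 5.04 in WT for kappa chains (SD, n = 3 each). This measure was added after its values were seen, so no test is given.

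The leading genes were not the same in all libraries. Ighv11-2 led NM1 KO replicates 1 and 2 and WT replicates 2 and 3, Ighv1-53 led NM1 KO replicate 3, and Ighv1-55 led WT replicate 1. Among kappa V genes, Igkv3-2 led NM1 KO replicates 1 and 3, Igkv14-126 led NM1 KO replicate 2 and WT replicates 2 and 3, and Igkv12-89 led WT replicate 1. Ighv11-2 and Igkv14-126 are the known heavy and light partners of a B-1 cell receptor that binds phosphatidylcholine, a membrane lipid. Ighv11-2 held 19.6%, 28.6% and 14.8% of heavy V counts in NM1 KO replicates 1 to 3, against 4.11%, 73.0% and 80.0% in WT replicates 1 to 3. Igkv14-126 held 15.4%, 31.8% and 9.15% of kappa V counts in NM1 KO, against 6.44%, 68.7% and 78.8% in WT. The partners ran in parallel over all 6 libraries, and the WT libraries lay on both sides of the NM1 KO libraries. By level, Ighv11-2 had 65.6, 6.20 and 12.3 CPM in NM1 KO, against 3.73, 221 and 92.3 CPM in WT (log2 -1.91 ± 1.31, edgeR adjusted p = 0.417). Igkv14-126 had 118, 14.0 and 27.0 CPM in NM1 KO, against 7.25, 392 and 199 CPM in WT (log2 -1.91 ± 1.26, edgeR adjusted p = 0.401).

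A further known phosphatidylcholine-binding pair of B-1 cells is Ighv12-3 with Igkv4-91, looked up after the values were seen. Ighv12-3 held 1.97%, 5.36% and 0.350% of heavy V counts in NM1 KO replicates 1 to 3, against 0.325%, 0.359% and 5.53% in WT. Igkv4-91 held 1.56%, 1.94% and 0.346% of kappa V counts in NM1 KO, against 0.197%, 0.196% and 3.70% in WT. Both partners were high in NM1 KO replicates 1 and 2 and WT replicate 3, with no separation of the groups.

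In WT replicate 1 another pair stood out. Ighv1-55 had 18.5, 0.549 and 3.35 CPM in NM1 KO replicates 1 to 3, against 72.5, 1.44 and 0.200 CPM in WT replicates 1 to 3. Igkv12-89 had 0.322, 0.122 and 0.401 CPM in NM1 KO, against 83.9, 0.639 and 0.361 CPM in WT. Igkv12-89 was thus abundant in a single library, and its log2 fold change of -6.65 ± 2.22 (edgeR adjusted p = 0.132) was -0.84 without that library. That of Ighv1-55 was -1.73 ± 1.81 (edgeR adjusted p = 0.607) and 3.15 without it.

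Some V genes were abundant in NM1 KO replicates 1 and 3. NM1 KO replicate 2 shared its leading heavy and kappa V genes with WT replicates 2 and 3, and NM1 KO replicate 1 shared its leading heavy V gene with them. Igkv3-2 had 264, 4.61 and 98.1 CPM in NM1 KO replicates 1 to 3, against 5.44, 0.352 and 9.06 CPM in WT replicates 1 to 3. NM1 KO replicate 2 lay below WT replicates 1 and 3 (log2 4.64 ± 1.47, edgeR adjusted p = 0.119). As a share of kappa V counts, Igkv3-2 was at 34.3%, 10.4% and 33.2% in NM1 KO, against 4.83%, 0.0616% and 3.59% in WT, so by share the groups did not overlap. Igkv3-4, of the same family, had 496, 4 and 2198 counts in NM1 KO, against 7, 0 and 0 counts in WT, and was too uneven to be tested. Ighv1-53 had 57.3, 0.336 and 16.2 CPM in NM1 KO, against 9.02, 5.15 and 3.53 CPM in WT (log2 2.06 ± 1.26, edgeR adjusted p = 0.364). Its closest V exon, that of Ighv1-72, is 96.1% identical and held 407 counts. Including Ighv1-72, 4 V genes were at least 95% identical to Ighv1-53, so reads of these genes may be mixed. Ighv1-42 had 774, 0 and 59 counts in NM1 KO and 0 counts in all 3 WT libraries. Against a floor of 3 counts over the WT group it was at least 253-fold higher in NM1 KO, through replicates 1 and 3 alone. The V exon closest to that of Ighv1-42 is Ighv1-43, with 96.9% identity and 0 counts in all.

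**Figure D2:**
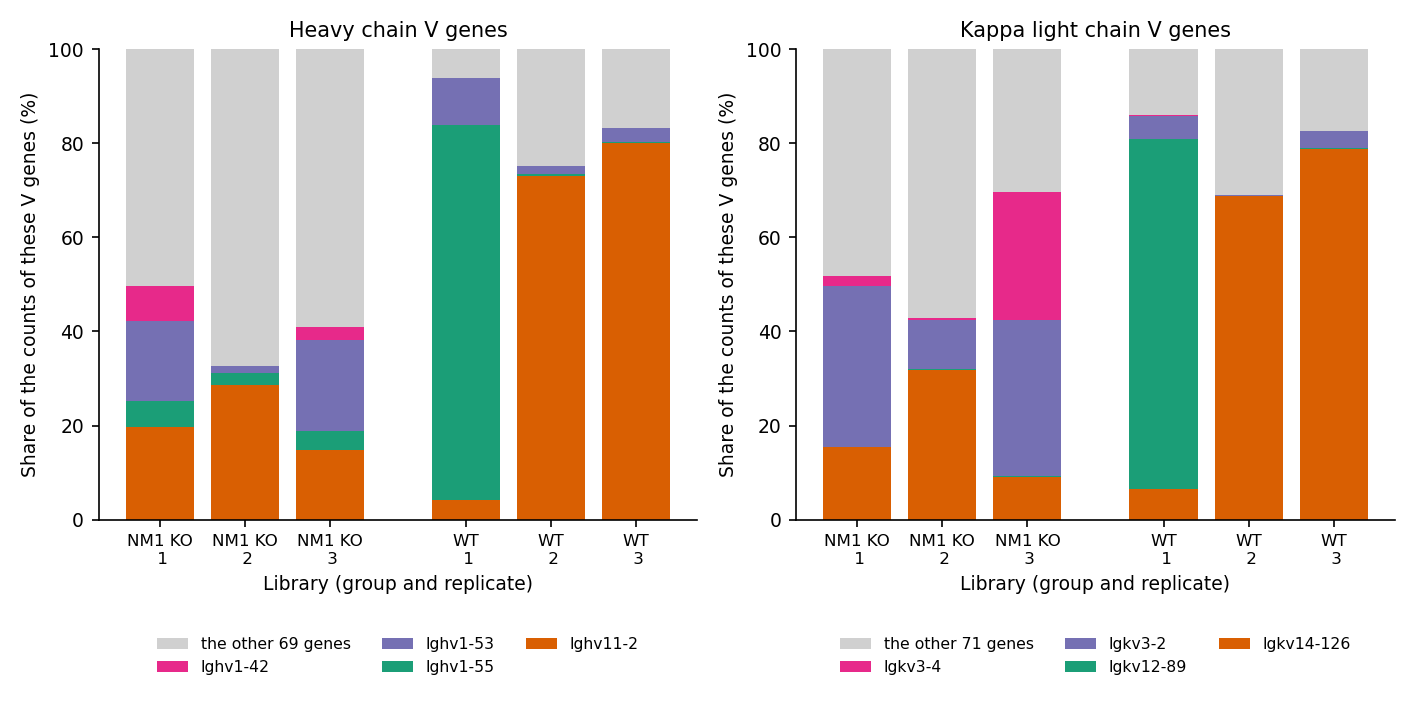
Share of heavy V counts (left) and kappa V counts (right) taken by the 4 V genes with the highest mean CPM of each chain and by all others, in percent, 1 bar per library, NM1 KO on the left. A single colour fills 73.0% to 80.0% of the heavy and 68.7% to 78.8% of the kappa bar in each WT library, while no gene exceeds 28.6% of the heavy or 34.3% of the kappa bar in NM1 KO.

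Shares by V gene family also varied between libraries. The Ighv1 family, the largest with 38 members, held 51.3%, 33.1% and 59.6% of heavy V counts in NM1 KO replicates 1 to 3, against 93.0%, 14.8% and 5.98% in WT replicates 1 to 3. The Igkv3 family, with 8 members, held 41.8%, 12.2% and 63.6% of kappa V counts in NM1 KO, against 6.93%, 0.963% and 4.82% in WT. The Igkv4 family, with 21 members, held 9.03%, 19.1% and 9.22% in NM1 KO, against 2.00%, 4.70% and 5.06% in WT. For the Igkv3 and Igkv4 families the lowest NM1 KO library lay above the highest WT library, as it did for 10 of the 29 heavy and kappa V families in all. The reverse was seen for 0. Shares add up within a chain, so a gene that takes most counts in WT lowers the share of all other families there. The 3 families named here were picked after their values were seen.

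After thinning to equal V counts, the expected number of V genes was higher in NM1 KO, while the counted numbers overlapped. At least 1 count was found for 147, 103 and 115 of the 151 V genes in NM1 KO replicates 1 to 3, against 55, 116 and 89 in WT replicates 1 to 3, so the groups overlapped (122 ± 22.7 in NM1 KO and 86.7 ± 30.6 in WT, SD, n = 3 each). The difference of 35 genes between the means was 19.2 without WT replicate 1 and 22.3 without NM1 KO replicate 1. The V counts behind these numbers ran from 2244 in NM1 KO replicate 2 to 36302 in NM1 KO replicate 1. Thinned to 2244 V counts per library, the expected number was 126, 103 and 98.2 in NM1 KO, against 40.4, 76.2 and 58.5 in WT. At equal depth every NM1 KO library lay above every WT library, with means of 109 ± 14.9 in NM1 KO and 58.4 ± 17.9 in WT. Thinned within each chain, the heavy V genes numbered 58.6, 45.0 and 46.2 in NM1 KO against 15.2, 34.0 and 25.3 in WT, and the kappa V genes 65.4, 55.0 and 50.4 in NM1 KO against 21.8, 38.4 and 30.5 in WT. A leading gene that takes most V counts leaves fewer for the others at equal depth. The thinned numbers are therefore not separate from the leading shares given above. The 151 V genes were also chosen on counts summed over all libraries, so a gene found in 1 group alone could enter. Of them, 15 had counts in NM1 KO libraries only and 1 in WT libraries only. How far this choice adds to the difference was not tested.

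The effective number of V genes, the inverse of the summed squared shares, weighs genes by their use. It was 11.7, 8.14 and 12.0 for heavy V genes in NM1 KO replicates 1 to 3, against 1.54, 1.86 and 1.55 in WT replicates 1 to 3. For kappa V genes it was 6.69, 7.63 and 5.06 in NM1 KO, against 1.76, 2.09 and 1.60 in WT. The groups did not overlap for either chain. At these unequal depths, 32 of the 151 V genes had a count in all 6 libraries, 84 in all 3 NM1 KO libraries and 37 in all 3 WT libraries. The highest CPM of a V gene fell in NM1 KO replicate 1 for 102 of the 151 and in NM1 KO replicate 2 for 1.

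**Figure D3:**
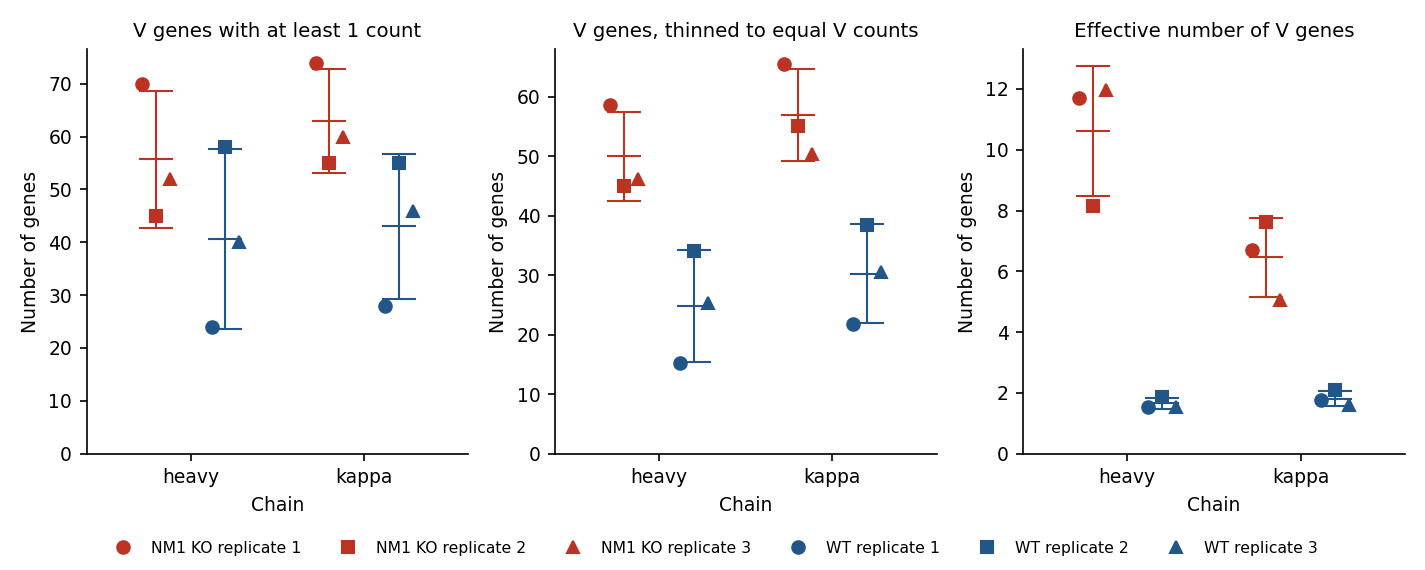
Number of V genes with at least 1 count, the number expected after thinning each library to the lowest V count of the chain, and the effective number, for heavy and kappa chains, with symbols for libraries and bars for the group mean and SD. The groups overlap in the counted number and separate in the thinned number and in the effective number, where NM1 KO lies at 5.06 to 12.0 and WT at 1.54 to 2.09.

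No V gene was called by edgeR. Of 19 heavy V genes tested, 0 had a p under 0.05 before adjustment, and DESeq2 and limma-voom called 0. Of 34 kappa V genes tested, 7 had a p under 0.05 before adjustment, 6 higher and 1 lower, and 5 were called by DESeq2 and 3 by limma-voom. Among all genes tested, 23.7% had such a p, and DESeq2 called 14.1% and limma-voom 10.1%. The ranges of 6 of the 68 tested members, Ighg2c and 5 kappa V genes, did not overlap and lay higher in NM1 KO, and 0 lay lower, beside 14.9% higher and 15.0% lower among all genes tested. A gene near 0 in WT can pass the filter on low counts through NM1 KO alone, so no direction is read from these counts. Igkv4-50 had 28, 73 and 138 counts in NM1 KO replicates 1 to 3, against 0, 0 and 5 counts in WT replicates 1 to 3 (log2 5.36 ± 1.17, edgeR adjusted p = 0.0537). It was close to the threshold and was called in 5 other fits that kept all libraries. Igkv6-14 had 171, 16 and 28 counts in NM1 KO and 0 in all 3 WT libraries, at least 65.4-fold higher against a floor of 3 counts over the WT group (edgeR adjusted p = 0.0729). Igkv9-120 had 131, 25 and 10 counts in NM1 KO, against 0, 4 and 2 counts in WT (edgeR adjusted p = 0.0833). Igkv17-127 had 334, 27 and 19 counts in NM1 KO, against 0, 6 and 1 counts in WT (edgeR adjusted p = 0.0841), and its V exon is 96.2% identical to that of Igkv17-121.

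Jchain and Mzb1 report on secretion rather than on the V genes. Jchain, the joining chain that links IgM and IgA into polymers, had 241, 14.2 and 92.9 CPM in NM1 KO replicates 1 to 3, against 96.0, 214 and 68.4 CPM in WT replicates 1 to 3. The groups overlapped (log2 -0.12 ± 0.87, edgeR adjusted p = 0.951), and its fold change was above 0 when NM1 KO replicate 2, NM1 KO replicate 3 or WT replicate 2 was left out. Mzb1, an endoplasmic reticulum protein of B and plasma cells that aids IgM assembly, had 16.1, 1.34 and 1.75 CPM in NM1 KO, against 20.8, 14.7 and 5.77 CPM in WT (log2 -1.10 ± 0.95, edgeR adjusted p = 0.525). It was low in NM1 KO replicates 2 and 3 while the summed members were lowest in replicate 2.

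NM1 KO replicate 2 stood apart in the ratio of chains. Its ratio of Ighm to Igkc CPM was 10.4, against 2.00 and 2.03 in NM1 KO replicates 1 and 3 and 4.65, 2.31 and 2.07 in WT replicates 1 to 3. Its ratio of Jchain to Ighm was 0.0190, against 0.0742 to 0.104 in the other 5 libraries. Heavy V counts made up 2.73% of its heavy V and constant counts, against 6.20% to 12.5% elsewhere, while kappa V counts made up 38.0% of kappa counts, within the 31.5% to 38.9% of the others. Ighm was thus high in this library relative to Igkc, Jchain and the heavy V genes.

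B cell markers varied between libraries, with NM1 KO replicate 1 the highest for 17 of 18. The 18 B cell markers summed to 836, 314 and 324 CPM in NM1 KO replicates 1 to 3, against 411, 394 and 394 CPM in WT replicates 1 to 3. None of the 18 was called by edgeR, 1 had a p under 0.05 before adjustment, DESeq2 called 1 and limma-voom 0. Over all genes tested, edgeR called 4.25%, 23.7% had such a p, DESeq2 called 14.1% and limma-voom 10.1%. Ms4a1, which encodes CD20, had 53.4, 5.43 and 4.15 CPM in NM1 KO, against 11.8, 19.5 and 11.8 CPM in WT. Cd79a, a signalling chain of the B cell receptor, had 75.8, 14.2 and 7.98 CPM in NM1 KO, against 22.5, 33.8 and 17.6 CPM in WT. Single NM1 KO libraries were also set against WT, without a share over all genes, so no direction is read from these counts. In NM1 KO replicate 2, 9 of the 18 markers lay below every WT library, and 12 did in NM1 KO replicate 3. Ms4a1 and Cd79a were among both. Other markers went the other way: 4 in NM1 KO replicate 2 and 1 in NM1 KO replicate 3 lay above every WT library. That 1 was Blnk, an adaptor of B cell receptor signalling that macrophages also express, named here after its values were seen. Blnk had 56.8, 31.0 and 27.7 CPM in NM1 KO, against 24.8, 15.6 and 13.4 CPM in WT, with no overlap (log2 1.10 ± 0.34, edgeR adjusted p = 0.112). The median log2 fold change of the 18 was 0.58. The part of B cell content in the V gene results was not tested.

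Of the 19 plasma cell markers outside the antibody genes, 1 was called higher and 0 lower by edgeR, 5 had a p under 0.05 before adjustment, DESeq2 called 5 and limma-voom 1. The shares over all genes tested were 4.25% called by edgeR, 23.7% at that p, 14.1% called by DESeq2 and 10.1% by limma-voom. The called gene, Slamf7, a surface receptor that macrophages and other immune cells also carry, rose to 39.0, 18.4 and 21.7 CPM in NM1 KO, against 5.03, 2.46 and 5.09 CPM in WT (log2 2.66 ± 0.39, edgeR adjusted p = 0.0241). Its call was lost without NM1 KO replicate 3 and without any of the WT replicates, at an adjusted p of 0.0668 to 0.0946. Tnfrsf17, the plasma cell survival receptor BCMA, had 1.71, 1.65 and 1.02 CPM in NM1 KO, against 1.77, 0.479 and 1.52 CPM in WT. Sdc1, which encodes CD138 and is also found on epithelial and other cells, had 51.7, 50.1 and 42.7 CPM in NM1 KO, against 37.3, 31.5 and 27.1 CPM in WT (edgeR adjusted p = 0.0691). Prdm1, the transcription factor of plasma cell fate, had 3.39 to 4.73 CPM in NM1 KO and 2.96 to 4.70 CPM in WT. Xbp1, which drives the secretory machinery, had 184, 232 and 248 CPM in NM1 KO, against 294, 462 and 343 CPM in WT (log2 -0.73 ± 0.20, edgeR adjusted p = 0.0841).

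**Figure D4:**
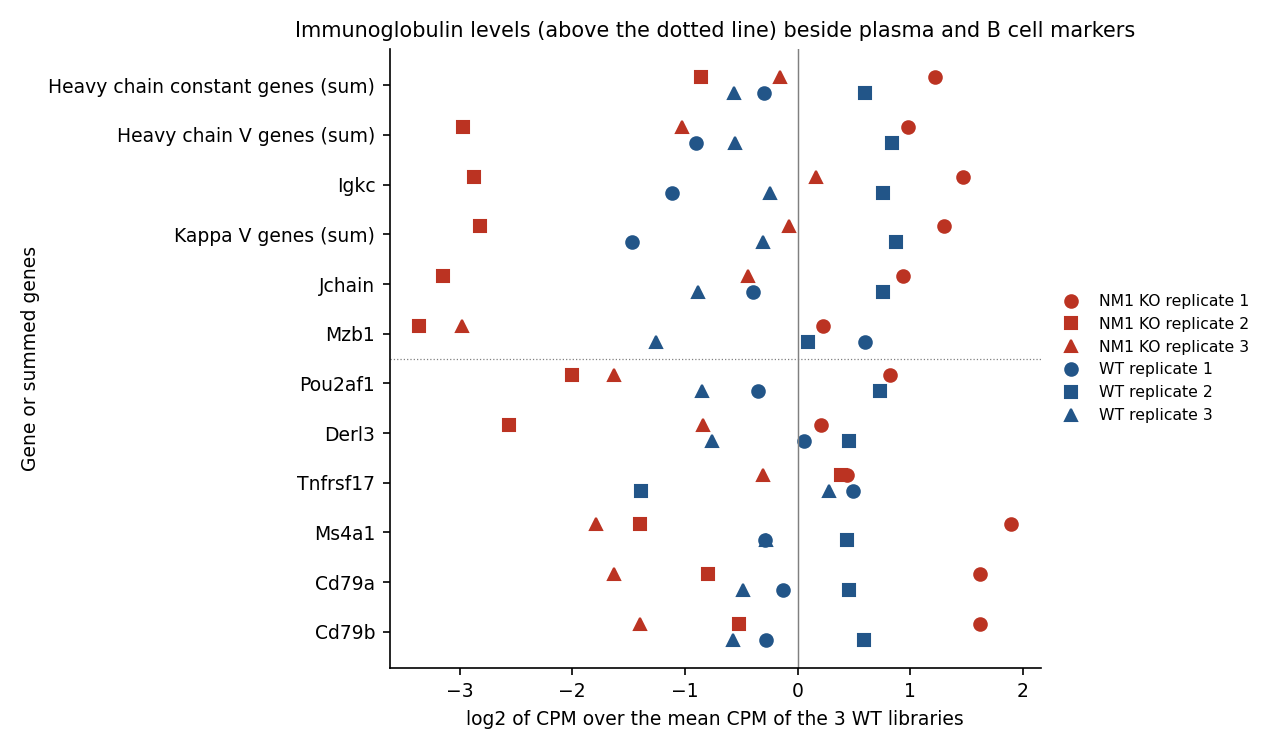
Levels in each library as log2 of CPM over the mean CPM of the 3 WT libraries, NM1 KO in red above WT in blue. Above the dotted line are summed heavy chain constant genes, summed V genes, Igkc, Jchain and Mzb1. Below it are the plasma cell markers Pou2af1, Derl3 and Tnfrsf17 and the B cell markers Ms4a1, Cd79a and Cd79b, a selection from the lists. Among markers not drawn, Sdc1, Slamf7 and Blnk lay higher in every NM1 KO library than in any WT library, and Xbp1 lay lower. NM1 KO replicate 1 lies at the right and NM1 KO replicate 2 at the left for most antibody genes, and NM1 KO replicate 1 lies to the right of every other library for Ms4a1, Cd79a and Cd79b.

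Further genes that mark or act on B cells were counted by list, beside the shares called among all genes (4.25% by edgeR, 14.1% by DESeq2 and 10.1% by limma-voom). A p under 0.05 before adjustment was reached by 23.7% of all genes tested. Of 7 markers of innate-like B-1 cells, edgeR called 0, 1 had a p under 0.05 before adjustment, DESeq2 called 1 and limma-voom 0. Cd5, a surface marker of B-1a cells and T cells, had 3.44, 0.671 and 1.82 CPM in NM1 KO, against 1.26, 1.66 and 0.641 CPM in WT. Zbtb32, a transcription factor, had 17.9, 4.91 and 3.53 CPM in NM1 KO, against 10.2, 9.21 and 5.65 CPM in WT. Bhlhe41, a transcription factor of B-1a cells that other tissues also express, had 40.3 to 54.3 CPM in NM1 KO and 32.2 to 63.7 CPM in WT. Spn, which encodes CD43 of B-1 and T cells, had 11.8 to 19.8 CPM in NM1 KO and 9.98 to 15.3 CPM in WT. Among genes of germinal centres and class switching, edgeR and limma-voom called 0 of 8 tested, 2 had a p under 0.05 before adjustment and DESeq2 called 2.

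Of 8 tested genes of B and plasma cell survival and homing, 1 was called higher by edgeR, 3 had a p under 0.05 before adjustment, DESeq2 called 3 and limma-voom 1. Vcam1, an adhesion molecule that lymphocytes bind, rose to 70.3, 41.4 and 75.9 CPM in NM1 KO, against 26.4, 27.8 and 19.5 CPM in WT (log2 1.35 ± 0.25, edgeR adjusted p = 0.0363). Tnfsf13b, the B cell survival factor BAFF, had 4.09 to 5.61 CPM in NM1 KO and 2.94 to 5.37 CPM in WT. Of 9 tested receptors and carriers of antibodies, 1 was called higher by edgeR, 3 had a p under 0.05 before adjustment, and DESeq2 and limma-voom called 3 each. Fcgr3, an activating receptor for IgG on macrophages and other cells, rose to 148, 126 and 120 CPM in NM1 KO, against 73.3, 77.5 and 85.2 CPM in WT (log2 0.74 ± 0.12, edgeR adjusted p = 0.0270). With any library other than NM1 KO replicate 2 left out in turn, the adjusted p lay between 0.0834 and 0.135 for Vcam1 and between 0.0535 and 0.0946 for Fcgr3. Fcgrt, the neonatal Fc receptor that recycles IgG, had 279, 445 and 414 CPM in NM1 KO, against 500.1, 402 and 545 CPM in WT. Pigr, the epithelial carrier of IgA, had 2.61, 0.0305 and 0.0364 CPM in NM1 KO, against 0.0740, 0 and 0.0401 CPM in WT.

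Markers of other cells and of tissues that could be carried along were measured beside the antibody genes. Their counts stand beside the same shares over all genes: 4.25% called by edgeR, 23.7% at a p under 0.05 before adjustment, 14.1% called by DESeq2 and 10.1% by limma-voom. Of 7 lymph node stroma genes, Glycam1 was at 0 counts and Madcam1 at 0.0644 CPM or below in every library, and Ccl21a had 15.1, 0.824 and 6.85 CPM in NM1 KO, against 10.1, 0 and 4.61 CPM in WT. That list summed to 28.0, 5.95 and 17.8 CPM in NM1 KO, against 18.4, 11.3 and 12.9 CPM in WT, and had no call by edgeR, limma-voom or DESeq2 (0 in each) and 0 at a p under 0.05 before adjustment. The T cell list summed to 56.8, 15.7 and 49.5 CPM in NM1 KO, against 16.2, 20.3 and 20.8 CPM in WT. By edgeR, limma-voom and DESeq2 alike, 0 of its 10 genes were called, with 4 at a p under 0.05 before adjustment, and it was high in the same 2 NM1 KO libraries in which Ighg2c and Igkv3-2 were highest. The part of T cell content in those results was not tested. The 8 pancreas markers summed to 51.0 to 63.9 CPM in NM1 KO and 18.8 to 38.7 CPM in WT, nearly all of it Cela1, an elastase that other tissues also express, while 5 were at 0 in all libraries. Cela1, the 1 gene of this list that was tested, did not overlap between the groups and was higher in NM1 KO. It had a p under 0.05 before adjustment and was not called by edgeR (log2 0.94 ± 0.26, edgeR adjusted p = 0.0859), while DESeq2 and limma-voom called it. Of 4 intestine markers Fabp2 was at 0, and Lgals4, a galectin, fell to 6.18, 6.62 and 7.43 CPM in NM1 KO, against 18.9, 12.6 and 18.0 CPM in WT (edgeR adjusted p = 0.0257, and 0.0578 to 0.103 with any library other than NM1 KO replicate 2 left out in turn). Of the 2 intestine markers tested, 1 was called lower by edgeR, 1 had a p under 0.05 before adjustment, and DESeq2 and limma-voom called 1 each. The 6 red blood cell genes summed to 437, 739 and 849 CPM in NM1 KO, against 992, 1068 and 1102 CPM in WT, with 0 called by edgeR and 5 at a p under 0.05 before adjustment, 3 called by DESeq2 and 1 by limma-voom.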

How the data were processed

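RNA was measured in 6 libraries of visceral fat, grouped by the genotype in their labels (3 NM1 KO and 3 WT). Per the labels' protocols, 500 ng of total RNA went into each library. The authors deposited raw gene counts with Ensembl identifiers. HISAT2 2.0.4, HTSeq, SAMtools 0.1.19, Trimmomatic 0.36 and FastQC were used on build GRCm38 (mm10), per the submitters' processing notes. The sources used here give neither the annotation nor the strand setting, so overlapping, antisense and near-identical genes are uncertain. The reference holds germline V genes, and how reads of rearranged or mutated ones were placed is not known.

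Names, biotypes and lengths were taken from GENCODE M21, which matched 46091 of 46603 identifiers. Entries naming no gene numbered 0. Genes were tested over the whole table with edgeR 4.0.16 in R 4.3.3 (filterByExpr, TMM, robust quasi-likelihood fit, genotype as the only term, Benjamini-Hochberg adjustment at 0.05). SE values are the absolute log2 fold change over the square root of F. Shares were compared with exact two-sided permutation tests. V genes were thinned by hypergeometric expectation. No 2 libraries agreed within sampling noise (lowest chi-square per degree of freedom 38.8). On simulated counts with 200 of 15590 genes changed, 41% of 2-fold and 91% of 4-fold changes were recovered, and 8.97% of the calls fell on unchanged genes. The changed genes were drawn from the whole table and not from the members. The median SE was 0.20 over all genes and 1.36 for the tested members, so these recovery rates do not apply to the members.

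The members, gene lists and naming rule were chosen with earlier results of these data known. Named were all constant genes, Jchain and Mzb1, the 4 heavy and 4 kappa V genes with the highest mean CPM, the leading V genes of each library, every called member, the 6 members of smallest p, and of each other list up to 4 leading markers and the called genes. Not every gene so selected is printed. Size factors were also taken by RLE, by upper quartile, from library totals and without the members. Other alternatives were no filter, a minimum of 1 CPM in 3 libraries, dispersion without the robust option, the replicate number as a block, DESeq2 1.42.0, limma-voom (limma 3.58.1) with quality weights, counts per kb, other count minimums and leaving out each library. A correction for GC content and length and the shares of leading V genes were added after seeing the data. Plots used matplotlib 3.10.9.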

Additional observations from a re-analysis of the deposited data

How the results depend on the processing

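The number of members called, 1 of 68 tested, depended on the fit. It was 2 with non-robust dispersion, 3 with the replicate number as a block, 6 with DESeq2, 3 with limma-voom and 2 with the GC content and length correction, all higher in NM1 KO, and it ranged from 0 to 23 when a library was left out. The 23 came without NM1 KO replicate 2, where 1654 genes in all were called and 110 members were tested, and the 0 without NM1 KO replicate 3 or any WT replicate, where 5, 37, 4 and 1 genes in all were called. With the correction for GC content and length, the log2 value of Ighg2c was 7.78 (adjusted p = 0.0217). The cause was not tested. Over all genes the number of calls was 673, against 336 with the block, 2239 with DESeq2 and 1605 with limma-voom. Deviations of libraries with the same replicate number correlated at -0.060, -0.035 and 0.19, so the numbers were not taken to pair the libraries. With the block, Ighg2c kept its call (log2 7.34, adjusted p = 0.0320), Igkv3-2 (adjusted p = 0.0380) and Igkv4-50 (adjusted p = 0.0492) gained one, while Fcgr3 (0.0630), Vcam1 (0.0844) and Lgals4 (0.0523) lost theirs, and paired sign permutation gave the Ighg2c share a p of 0.25, the smallest that 3 pairs allow.

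Of 278 fold changes of 26 named genes in fits that kept all libraries, 3 changed sign: Ighv1-55 with limma-voom (0.23), and Iglc3 with limma-voom (-0.11) and with the block (-0.0073). When a library was left out, 11 of 156 did, and the ranges were -0.47 to 1.42 for Ighg2b, -0.48 to 0.66 for Ighm, -3.66 to 3.15 for Ighv1-55, -0.66 to 1.04 for Igkc, -0.16 to 2.57 for Iglc1, -0.73 to 1.72 for Iglc2, -0.82 to 0.97 for Iglc3 and -1.22 to 0.50 for Jchain. Slamf7, Fcgr3, Vcam1 and Lgals4 each lost the call in at least 4 of the 6 fits that left out a library, with fold changes of 2.28 to 2.86, 0.67 to 0.80, 1.19 to 1.57 and -1.45 to -1.18. Differences of group means without a library ranged from 1.20 to 3.48 points for the lambda share, -5.50 to -2.02 for the Ighm share, 0.281 to 0.515 for the Igha share, 1.07 to 1.60 for the Ighg2c share, -58.1 to -53.5 for the leading heavy V share, -43.5 to -38.5 for the leading kappa V share and 19.2 to 49.7 for the number of V genes. The log2 ratio of summed constant and V levels ranged from -0.62 to 0.85. The number of V genes differed by 35 in the means, by 44 at 3 counts, 43 at 10 counts and 50.7 after thinning. Depth limits the V results most in NM1 KO replicate 2, with 709 heavy and 1447 kappa V counts.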
